A study of Mus musculus with 16 samples.

Results

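Hypoxic tumours of E0771, a mouse breast cancer cell line, were compared with hypoxic tumours of MC38, a mouse colorectal cancer cell line. Of the 16 tumours in the study, the 7 that the labels class as hypoxic were chosen, 3 from E0771 (mice 12, 22 and 55) and 4 from MC38 (mice 12, 14, 17 and 25). All 770 genes of a NanoString immune panel were compared, and the control probes were left out. The other 9 tumours, 5 from E0771 and 4 from MC38, are labelled normoxic. They entered the fit for the spread between tumours and are given beside the hypoxic comparison.

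In both lines 500000 cells had been placed with matrigel at the right shoulder, and all mice had received immunotherapy against PD-1 and CTLA-4, so no group was untreated. Tumours were taken after imaging on day 5 of the time after treatment and kept in RNAlater. Hypoxia had been imaged by PET with fluoromisonidazole, a tracer retained in cells low in oxygen; its uptake per tumour was not analysed here. Each arm rests on 1 cell line, the labels give no strain, age or sex of the mice, and each tumour within a line has its own mouse number. Neither the labels nor the table name a cartridge or run date, so line and batch cannot be told apart.

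PD-1 and CTLA-4 are receptors that restrain T cells, and antibodies to them release that restraint. What a tumour cell secretes and displays, and how cells around it respond to interferons, shape which immune cells enter the tumour. Hypoxia stabilises the transcription factor HIF-1, which turns on genes of vessel growth and of the adenosine pathway, which dampens T cells. In bulk tumour RNA, fewer cells of a type and less RNA per cell cannot be told apart, nor can RNA of the implanted cells and RNA of host cells.

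Values are normalized signals that had been scaled so that 20 housekeeping genes had a geometric mean of 780 in every tumour, and values per tumour are given in the mouse order above. A gene was called above background in a tumour when it exceeded the mean plus 2 SD of the negative-control probes on the same scale. E0771 tumours 12 and 22 had the fewest estimated counts (192035 and 180274, with 629162 in E0771 tumour 55, against 274508 to 776176 in MC38 tumours) and the highest background levels (43.0 and 52.8, with 12.2 in E0771 tumour 55, against 6.25 to 13.5 in MC38 tumours). In all 7 tumours 451 genes lay above background, and 27 did in none. Of the measured epithelial markers Epcam, Cdh1 and Muc1, which would mark carcinoma cells, none lay above background in all 7 tumours, and their summed signal was 34.2, 338 and 37.02 in E0771 tumours, against 136, 59.5, 71.6 and 21.1 in MC38 tumours. The labels give breast and colorectal cancer as the sources, and the panel offered no clear marker of the implanted cells. E0771 tumour 22 stood apart on the first principal component of the 7 tumours (49.5% of the variance, score 32.5, against -25.8 to 5.76 in the other 6) and had a summed signal of 5 fibroblast and pericyte markers of 37908, against 2774 to 9166 in the other 6.

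At an adjusted p under 0.05 (limma, Benjamini-Hochberg over all genes), 56 of 770 genes differed between the lines (7.27%), of which 33 were higher (4.29%) and 23 lower (2.99%) in E0771 hypoxic tumours. All E0771 tumours lay above or below all MC38 tumours for each of these except Ifit3, while 156 of all 770 genes (20.3%) had groups that did not overlap. The median log2 difference of all genes was 0.40, and 69.9% of them were positive, so a list or gene near 0.40 followed the panel as a whole. This median was 0.01 after background subtraction and 0.36 among the 601 genes with a mean of at least 50, so the reference depends on the processing. Without E0771 tumour 12 the call was made for 21 higher and 12 lower genes, and without E0771 tumour 22 for 24 higher and 29 lower genes. Without both, 2 higher and 11 lower genes passed, and the lone E0771 tumour was then assumed to vary like the other groups. When counts were scaled on the positive-control probes in place of the housekeeping genes, the median of all genes was -0.98 and 0 genes were higher and 46 lower (170 at an unadjusted p under 0.05). All 23 lower genes still passed on that scale, and 31 of the 33 higher genes kept a positive difference without passing. The 20 housekeeping genes had a median of -1.53 on that scale, against -0.08 on the deposited scale. The positive-control scale thus placed E0771 tumours lower as a whole and favours falls, so a fall that passed there is no separate support.

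Among secreted factors, the chemokines Cxcl10 and Cxcl11 and osteopontin were lower in E0771 tumours. Cxcl10, a chemokine that draws T cells bearing CXCR3, had a signal of 705, 749.8 and 975 in E0771 tumours, against 8784, 6067, 11282 and 8592 in MC38 tumours. Its log2 difference was -3.40 ± 0.63 (SE; adjusted p = 0.00303), and every E0771 tumour lay well below the lowest MC38 tumour. Cxcl11, which binds the same receptor, had 68.4, 70.4 and 91.8 in E0771 tumours, against 464, 511, 558 and 491 in MC38 tumours (log2 difference -2.71 ± 0.63, adjusted p = 0.0112), but it did not pass in the fit without E0771 tumour 12. The third ligand of CXCR3, Cxcl9, overlapped between the lines, with 442, 1007 and 1198 in E0771 tumours, against 664, 494, 946 and 364 in MC38 tumours (log2 difference 0.48 ± 0.77, adjusted p = 0.763). Spp1, osteopontin, a matrix protein secreted by tumour cells and macrophages, had 483, 880.02 and 1563 in E0771 tumours, against 20164, 8364, 18805 and 12455 in MC38 tumours. This was a 16.1-fold difference, with the smallest adjusted p of all genes (2.08e-05).

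Cxcl1, a chemokine that draws neutrophils, had 18.2, 148 and 33.9 in E0771 tumours, against 379.9, 623, 376 and 449.6 in MC38 tumours (log2 difference -3.27 ± 0.66, adjusted p = 0.00373). Lif, a cytokine of the interleukin-6 family, had 25.1, 49.3 and 20.1 in E0771 tumours, against 192, 127, 214 and 140.3 in MC38 tumours (-2.45), and Vegfc, a growth factor of lymphatic vessels, had 11.4, 56.3 and 29.3 in E0771 tumours, against 333, 149, 265 and 245 in MC38 tumours (-3.10). For all of these the E0771 tumours lay below the MC38 tumours. E0771 tumour 12 was under background for Cxcl1, Lif and Vegfc, and E0771 tumour 22 for Lif, so these differences are taken partly against background signal. Lcn2, lipocalin-2, an iron-binding protein of neutrophils and epithelial cells, had 38.8, 73.9 and 57.1 in E0771 tumours, against 303, 266, 384 and 303 in MC38 tumours (-2.49 ± 0.40, adjusted p = 0.00108), with E0771 tumour 12 under background. The summed signal of the neutrophil markers S100a8, Csf3r and Cxcr2 overlapped between the lines (123, 1211 and 158 in E0771 tumours, against 436, 248, 398 and 104 in MC38 tumours), none of the 3 passed, and its part in the levels of Cxcl1 and Lcn2 was not tested.

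The largest fitted fall was that of a cytokine receptor. Il1rl1, the receptor ST2 for interleukin-33, had 47.9, 243 and 55.5 in E0771 tumours, against 3891, 3055, 4583 and 2894 in MC38 tumours, a 40.4-fold difference (log2 -5.34 ± 0.69, adjusted p = 0.000119). Msln, mesothelin, a surface protein of mesothelial cells and some carcinomas, had 15.96, 17.6 and 5.4 in E0771 tumours, against 444, 668, 427 and 375 in MC38 tumours. It lay under background in all 3 E0771 tumours and above it in all 4 MC38 tumours, so only a bound can be given, at least 14.9-fold lower in E0771 (adjusted p = 0.000119). Cd34, a sialomucin of vessel and progenitor cells, had 171, 338 and 216 in E0771 tumours, against 3053, 1982, 2483 and 2393 in MC38 tumours (-3.39 ± 0.50, adjusted p = 0.000579).

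Smaller differences were measured for further receptors. Il13ra1, a receptor chain for interleukins 4 and 13, had 88.9, 356 and 217 in E0771 tumours, against 1009.9, 524, 921 and 563 in MC38 tumours (-1.92, adjusted p = 0.0195), and Tfrc, the transferrin receptor that takes up iron, had 629, 1401 and 2533 in E0771 tumours, against 6296, 3179, 5019 and 4651 in MC38 tumours (-1.83, adjusted p = 0.0112). Klra4, an NK cell receptor, had 25.1, 84.5 and 31.6 in E0771 tumours, against 308, 281, 202 and 193 in MC38 tumours (-2.54, adjusted p = 0.00422), with E0771 tumour 12 under background. The E0771 tumours lay below the MC38 tumours for each, and Klra4 belongs to a family of near-identical genes whose probes could share signal. Cd81, a tetraspanin (-1.98), Tlr3, a sensor of double-stranded RNA (-1.71), and Mcam, an adhesion molecule of vessels and melanoma (-1.19), were also lower, with adjusted p of 0.0288, 0.044 and 0.0485. These rest on the full set of tumours: of the 7 fits that left out 1 tumour, Cd81 and Tlr3 passed in 2 and Mcam in 0, and Tlr3 lay under background in E0771 tumour 12. Eomes, a transcription factor of CD8 T cells and NK cells, had 15.96, 28.2 and 21.6 in E0771 tumours, against 99.7, 66.1, 108 and 101 in MC38 tumours (-2.06 ± 0.44, adjusted p = 0.00638). E0771 tumours 12 and 22 lay under background for Eomes, so its difference is taken mostly against background signal, and it did not pass without them (-2.04, adjusted p = 0.199). The summed signal of the T cell markers Cd3d, Cd3e, Cd3g, Cd2, Cd8a and Cd4 overlapped between the lines (249, 1052 and 630.00 in E0771 tumours, against 307, 347, 581 and 152 in MC38 tumours), none of the 6 passed, and its part in the level of Eomes was not tested.

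**Figure D1:**
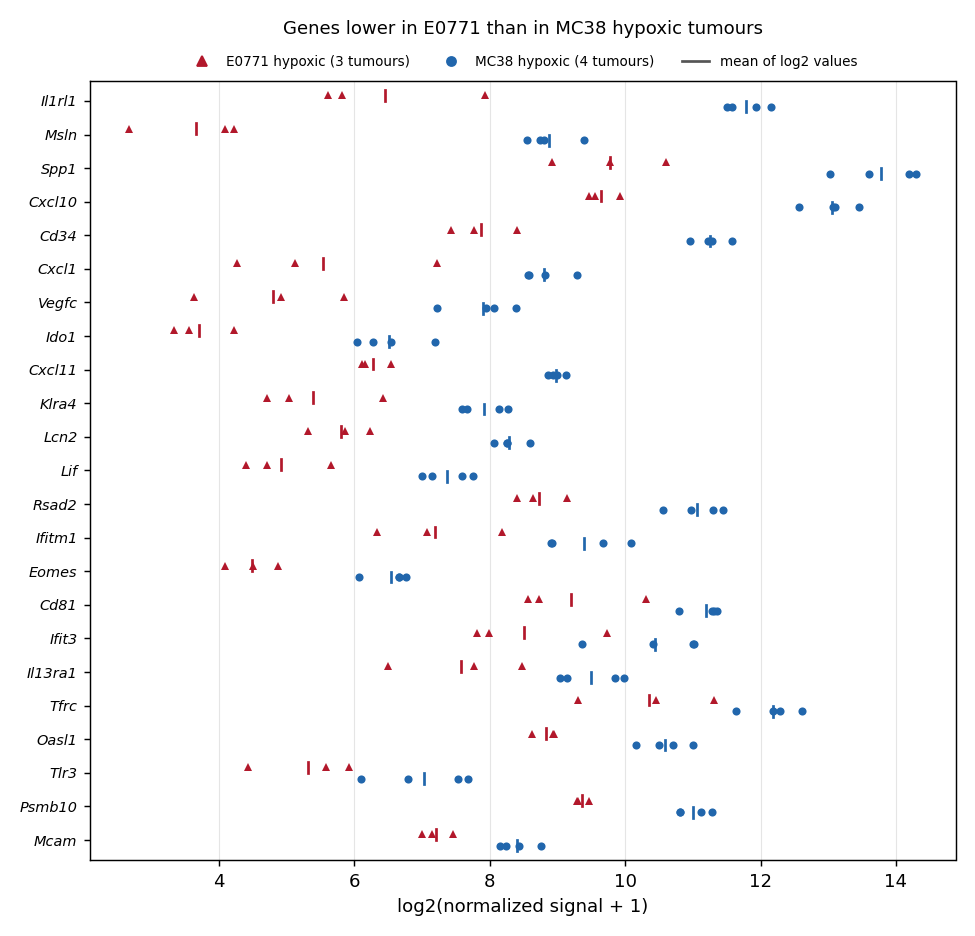
Signal of the 23 genes that were lower in E0771 hypoxic tumours, as log2(normalized signal + 1), with a point for each tumour and a bar for the mean of a group (triangles, 3 E0771 tumours; circles, 4 MC38 tumours). Genes are ordered by fitted difference; all E0771 tumours lie left of all MC38 tumours for 22 of the 23, and Ifit3 overlaps.

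Type I interferon response genes had the lowest median of the 32 gene lists. These genes are induced by interferon through a DNA element with repeated GAAA, and many encode antiviral proteins. Of 27 members described here, 24 had negative differences, 4 passed as lower and 0 as higher (2.99% and 4.29% over all genes), and the median was -0.99, against 0.40 over all genes. On the positive-control scale the median of the list was -2.39, against -0.98 over all genes. Without E0771 tumours 12 and 22 it was -0.46, against 0.16 over all genes, and the lists of type 2 cytokines (-0.99), neutrophils (-0.81) and chemokines that attract T and B cells (-0.49) then had lower medians. In normoxic tumours the median of the list was -0.70, against -0.52 over all genes. Rsad2, viperin, which blocks viral replication, had 338, 398 and 561 in E0771 tumours, against 2012, 1501, 2782 and 2509 in MC38 tumours (-2.34 ± 0.59, adjusted p = 0.017). Oasl1, of the oligoadenylate synthetase family, had 488, 493 and 392 in E0771 tumours, against 1143, 1676, 1444 and 2049 in MC38 tumours (-1.76 ± 0.45, adjusted p = 0.0184), and Ifitm1, a membrane protein that hinders virus entry, had 79.8, 289 and 133 in E0771 tumours, against 1081, 483, 818 and 479 in MC38 tumours (-2.20 ± 0.56, adjusted p = 0.0178). For these 3 the groups did not overlap.

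Ifit3, a partner of the antiviral IFIT proteins, had 223, 253 and 849.8 in E0771 tumours, against 2073, 656, 2049 and 1358 in MC38 tumours (-1.94 ± 0.55, adjusted p = 0.0395). E0771 tumour 55 lay above MC38 tumour 14, and the difference was -0.71 when E0771 tumours 12 and 22 were left out. Isg15, a ubiquitin-like protein (-1.56 ± 0.54, adjusted p = 0.103), Cmpk2 (-1.55 ± 0.46, adjusted p = 0.051) and Zbp1, a sensor of nucleic acid (-1.36 ± 0.44, adjusted p = 0.0717), had non-overlapping groups below MC38 without passing. The members did not move alike: Bst2 (-0.13 ± 0.44) and Ifit2 (-0.14 ± 0.47) were close to 0, with an adjusted p of 0.881 each. Of the type I and III interferons themselves, Ifnb1 lay under background in all 3 E0771 tumours and above it in all 4 MC38 tumours, with 41.05, 35.2 and 8.48 in E0771 tumours, against 30.2, 16.5, 32.9 and 37.3 in MC38 tumours, and its signals overlapped between the lines. None of the 9 measured interferon and interferon receptor genes passed, against 7.27% of all genes.

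The promoters of Cxcl10, Rsad2 and Spp1 are shown because these genes were lower in E0771 tumours and hold the motif GAAANNGAAA, the core of the interferon element, in the 250 bases before their start. Sequences are RefSeq promoters of build GRCm38.p6, the 220 bases before the start, read 5′ to 3′ on the strand of the gene, with the motif, or its reverse complement, in capitals.
Cxcl10, chr5:92348890-92349109, minus strand: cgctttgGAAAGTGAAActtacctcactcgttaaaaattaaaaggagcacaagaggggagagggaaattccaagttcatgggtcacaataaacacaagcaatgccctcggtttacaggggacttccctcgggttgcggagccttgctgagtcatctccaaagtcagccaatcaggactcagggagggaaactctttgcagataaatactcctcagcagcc
Rsad2, chr12:26456453-26456672, minus strand: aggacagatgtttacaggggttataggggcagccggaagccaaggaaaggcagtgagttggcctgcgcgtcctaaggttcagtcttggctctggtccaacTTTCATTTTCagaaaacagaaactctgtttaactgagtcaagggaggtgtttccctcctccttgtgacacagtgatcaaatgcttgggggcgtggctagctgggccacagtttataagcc
Spp1, chr5:104434891-104435110, plus strand: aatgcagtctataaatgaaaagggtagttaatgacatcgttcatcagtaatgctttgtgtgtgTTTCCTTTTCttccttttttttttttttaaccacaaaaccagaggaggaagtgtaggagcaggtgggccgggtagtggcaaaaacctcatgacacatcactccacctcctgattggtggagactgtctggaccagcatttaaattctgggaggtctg
The motif begins 213 bases before the start in Cxcl10, 120 in Rsad2 and 157 in the Spp1 promoter shown. A promoter of another Spp1 start in the table, chr5:104435972-104436191, holds no motif. A gene was counted as holding the motif when the promoter of any of its starts did. Searched on both strands in the 250 bases before the start, it was held by 936 of 27025 genes in the table (3.46%) and by 47 of 571 panel genes with an entry (8.23%). It was held by 9 of 21 type I interferon response genes with an entry (42.9%), by 5 of 20 genes lower in E0771 (25.0%) and by 0 of 22 genes higher in E0771 (0.0%). The other 2 lower genes with the motif were Ifit3 and Eomes. A match of these letters describes the sequence and does not show that a factor binds there.

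**Figure D2:**
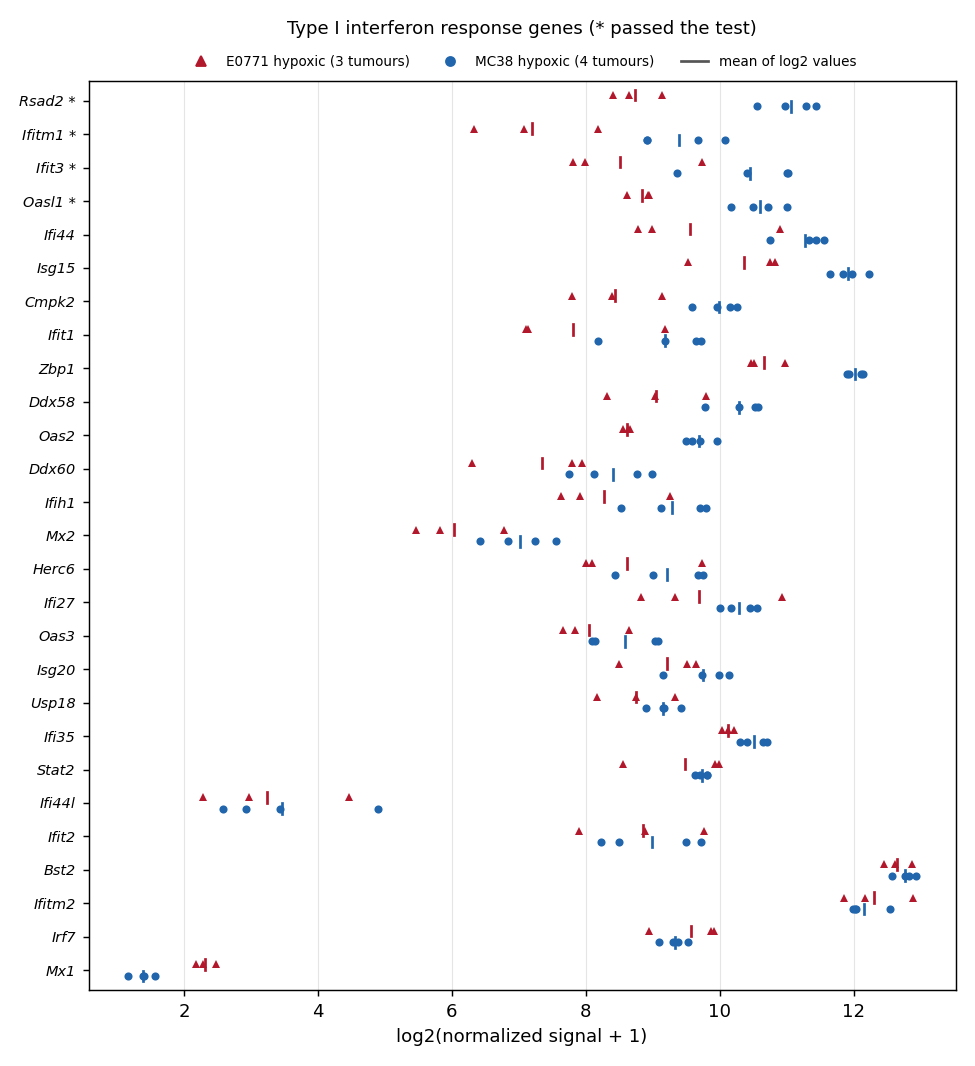
Signal of 27 type I interferon response genes in hypoxic tumours, as log2(normalized signal + 1), with a point for each tumour and a bar for the mean of a group (triangles, 3 E0771 tumours; circles, 4 MC38 tumours). A star marks the 4 genes that passed; 24 of the 27 have a lower mean in E0771.

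Genes of the interferon gamma response and of antigen presentation split. Of 25 interferon gamma and Th1 genes 3 were lower (Cxcl10, Cxcl11 and Ido1) and 0 higher (2.99% and 4.29% over all genes). The median of the list was 0.47, close to that of all genes. Ido1, an enzyme that breaks down tryptophan and restrains T cells, had 9.12, 17.6 and 10.8 in E0771 tumours, against 76.8, 92.6, 145 and 64.6 in MC38 tumours. It lay under background in all 3 E0771 tumours and was at least 2.91-fold lower there (adjusted p = 0.00168). Psmb10, a subunit of the immunoproteasome, which cuts peptides for MHC class I, had 709, 634 and 628 in E0771 tumours, against 1786, 2483, 1797 and 2231 in MC38 tumours (-1.65 ± 0.43, adjusted p = 0.0236) and passed in 2 of the 7 fits that left out 1 tumour. The other immunoproteasome subunits, Psmb8 (-0.17 ± 0.32) and Psmb9 (0.75 ± 0.33), did not pass (adjusted p = 0.789 and 0.245).

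MHC class II genes, which present peptides to CD4 T cells, had the highest median of the 32 lists, 1.44, with all 10 members positive and 0 passing. Over all genes 69.9% were positive and 7.27% passed. H2-Ab1 had 3596, 7649 and 4464 in E0771 tumours, against 837, 2328, 1548 and 684 in MC38 tumours (2.05 ± 0.76, adjusted p = 0.144), and Cd74, the invariant chain, had 7058, 12003 and 8583 in E0771 tumours, against 2158, 5813, 4021 and 1782 in MC38 tumours (1.55 ± 0.72, adjusted p = 0.26). For both genes the E0771 tumours lay above the MC38 tumours. The median of this list stayed positive on the positive-control scale (0.12), where the median of each other list was negative. The summed signal of the macrophage and monocyte markers Csf1r, Cd68, Cd14, Itgam and Cx3cr1 was 2851, 4682 and 3199 in E0771 tumours, against 1642, 3697, 3558 and 1128 in MC38 tumours, and its part in the MHC class II levels was not tested.

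Integrins, adhesion and matrix genes were among those higher in E0771 tumours. Itga5, the fibronectin receptor chain, had 1236, 1362 and 558 in E0771 tumours, against 165, 233, 191 and 173 in MC38 tumours (2.37 ± 0.39, adjusted p = 0.00129). Itga6, a laminin receptor chain, had 1249.7, 1478 and 2397 in E0771 tumours, against 453, 243, 385 and 297 in MC38 tumours (2.29 ± 0.42, adjusted p = 0.00299). Of 15 integrins and related genes these 2 were higher and 0 lower (4.29% and 2.99% over all genes). The median of the list was 0.63, against 0.40 over all genes. Icam1, the ligand of leukocyte integrins, had 677, 309.8 and 488 in E0771 tumours, against 69.5, 121, 131 and 90.7 in MC38 tumours (2.21 ± 0.54, adjusted p = 0.0138), with all E0771 tumours above all MC38 tumours. Adgre5, the adhesion receptor CD97, had 342, 436 and 275 in E0771 tumours, against 60.5, 74.4, 96.6 and 32.3 in MC38 tumours (2.47 ± 0.52, adjusted p = 0.00535), and the tetraspanin gene Cd9 had 4103, 3647 and 8039 in E0771 tumours, against 2249.5, 1020.00, 1739 and 1088 in MC38 tumours (1.77 ± 0.42, adjusted p = 0.0125).

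Col4a1, a collagen of basement membranes, had 1263, 3629 and 822 in E0771 tumours, against 292, 521, 248 and 249.7 in MC38 tumours (2.32 ± 0.45, adjusted p = 0.00338). E0771 tumour 22 was the highest, and the fibroblast collagens Col1a1 (1140.3, 17787 and 1065 in E0771 tumours, against 1787, 3735, 1780.3 and 886 in MC38 tumours) and Col3a1 (1450.4, 19153 and 2152 in E0771 tumours, against 3825, 4824, 5175 and 1602 in MC38 tumours) were highest in the same tumour without differing between the lines (adjusted p = 0.74 and 0.924). Pdgfrb, a growth factor receptor of pericytes and fibroblasts, had 194, 176 and 99.5 in E0771 tumours, against 24.5, 26.4, 27.6 and 29.8 in MC38 tumours (2.43 ± 0.50, adjusted p = 0.00424), and here E0771 tumour 12, not 22, was the highest. The summed signal of Col1a1, Col3a1, Pdgfrb, Fap and Thy1 was 3143, 37908 and 3827 in E0771 tumours, against 6112, 9166, 7646 and 2774 in MC38 tumours; 1 of the 5 passed, none lay at the floor of 1, and their part in the Col4a1 level was not tested. Without E0771 tumours 12 and 22 the log2 differences were 1.40 for Col4a1 and 1.84 for Pdgfrb.

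Vessel genes went both ways, with 4 of 25 higher and 3 lower in E0771, against 4.29% higher and 2.99% lower of all genes, and a median of -0.08. Eng, endoglin, a co-receptor for TGF-beta on vessel and stromal cells, had 709, 862 and 371 in E0771 tumours, against 75.2, 190.1, 109.8 and 68.3 in MC38 tumours (2.57 ± 0.50, adjusted p = 0.00338). F2rl1, a receptor cleaved by proteases, had 214, 172 and 299.96 in E0771 tumours, against 41.7, 13.2, 33.5 and 6.21 in MC38 tumours, the largest fitted rise of the panel (log2 3.51 ± 0.71, 11.4-fold, adjusted p = 0.00373), although 2 of the 4 MC38 tumours lay under background. Plau, the urokinase that activates plasminogen, had 629, 1010.3 and 777 in E0771 tumours, against 194, 249.6, 347 and 94.4 in MC38 tumours (1.98 ± 0.57, adjusted p = 0.04) and passed in 1 of the 7 fits that left out 1 tumour. The endothelial markers Pecam1, Cdh5, Kdr and Tek summed to 173, 468 and 329 in E0771 tumours, against 561, 446, 641 and 313 in MC38 tumours, 0 of the 4 passed, none lay at the floor of 1, and their part in the levels of Cd34, Mcam and Eng was not tested.

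Several of the higher genes encode signalling proteins. Irak2, a kinase-like adaptor downstream of Toll-like and interleukin-1 receptors, had 566, 1077 and 420.3 in E0771 tumours, against 91.5, 104, 141 and 55.9 in MC38 tumours (2.76 ± 0.50, adjusted p = 0.00299). Irak1, its partner kinase, had 440.1, 598 and 552 in E0771 tumours, against 161, 170.3, 189.9 and 156 in MC38 tumours (1.63 ± 0.32, adjusted p = 0.00338), with a narrow spread in each line. Of the 35 genes listed for NF-kB and Toll-like receptors, these 2 were higher and Tlr3 lower, shares close to the 4.29% higher and 2.99% lower of all genes, and the subunits Nfkb1 (-0.12 ± 0.28) and Rela (0.86 ± 0.41) did not pass (adjusted p = 0.826 and 0.283). Igf1r, the receptor of insulin-like growth factor 1, had 372, 947 and 339 in E0771 tumours, against 113, 124, 122 and 95.6 in MC38 tumours (2.11 ± 0.42, adjusted p = 0.00338), and Smad3, which carries TGF-beta signals to the nucleus, had 481, 905 and 387 in E0771 tumours, against 136, 165, 162 and 163 in MC38 tumours (1.82 ± 0.35, adjusted p = 0.00338). Prdm1, the transcription factor BLIMP-1, had 86.7, 197 and 116 in E0771 tumours, against 33.5, 16.5, 36.8 and 13.7 in MC38 tumours (2.39 ± 0.56, adjusted p = 0.0114), and the groups did not overlap for any of these genes.

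Enzymes and other single genes completed the 15 largest rises. Nt5e, the enzyme CD73 that makes adenosine from AMP outside the cell, had 176, 327 and 470.4 in E0771 tumours, against 59.6, 23.1, 65.7 and 13.7 in MC38 tumours (3.12 ± 0.58, 8.71-fold, adjusted p = 0.00303). St6gal1, which adds sialic acid to glycoproteins, had 221, 253 and 217 in E0771 tumours, against 31.9, 33.1, 46.7 and 11.2 in MC38 tumours (3.02 ± 0.57, adjusted p = 0.0033), and its 3 E0771 values lay close together. Hspb2, a small heat shock protein, had 84.4, 341 and 92.5 in E0771 tumours, against 10.6, 24.8, 23 and 6.21 in MC38 tumours (3.21 ± 0.70, adjusted p = 0.00674). C2, a protease of the classical complement pathway, had 383, 398 and 664 in E0771 tumours, against 89.1, 57.9, 127 and 34.8 in MC38 tumours (2.73 ± 0.54, adjusted p = 0.00358). It was the only 1 of 30 complement genes that passed, a share close to the 4.29% higher of all genes. For each of these 4 genes every E0771 tumour exceeded every MC38 tumour, and MC38 tumour 25 lay under background for St6gal1 and Hspb2.

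The other rises ran from 1.27 to 2.04. They were Lrp1, an endocytic receptor (2.04), the receptor chain Il6ra (1.93), Il34, a ligand of the macrophage receptor CSF1R (1.91), and Cd40, a costimulatory receptor (1.72). They further included the transcription regulators Bcl6 (1.64), Nfatc1 (1.63), Zfp13 (1.62) and Runx1 (1.54), and Mfge8, which bridges dying cells to phagocytes (1.61). Clu, clusterin (1.60), Dock9 (1.59), Bcl2l1, which encodes the survival protein BCL-XL (1.45), Axl, a receptor kinase (1.27), and Tollip, an adaptor of Toll-like receptor signalling (1.27), made up the rest. Axl and Tollip were the 2 genes whose sign turned on the positive-control scale, to -0.17 each. Nfatc1 and Tollip passed in 0 of the 7 fits that left out 1 tumour, and Zfp13 was not above background in every E0771 tumour. Bcl6, Bcl2l1 and Axl did not pass without E0771 tumour 12, nor when each tumour was centred on its median gene. Of all 33 higher genes, 16 passed in each of the 7 fits.

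**Figure D3:**
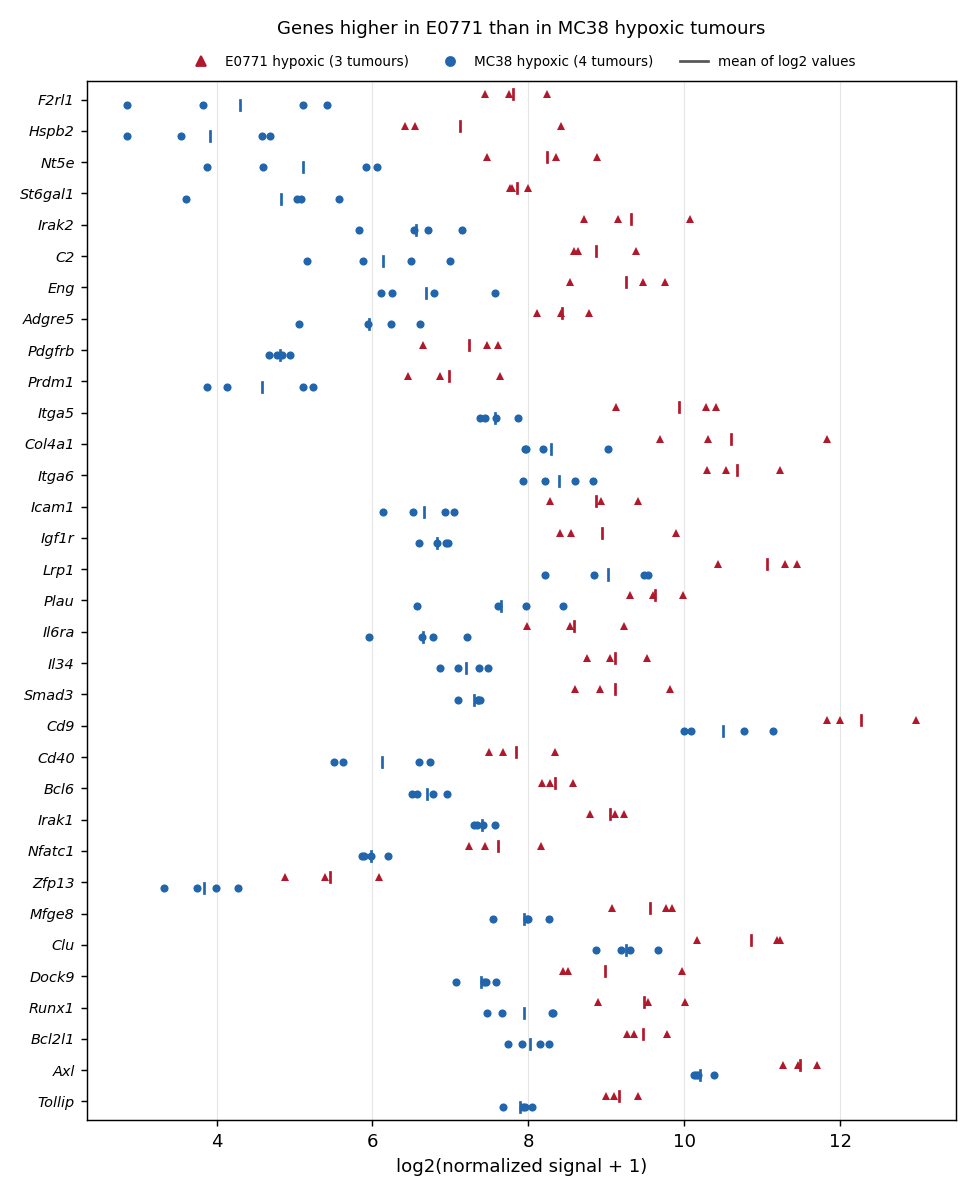
Signal of the 33 genes that were higher in E0771 hypoxic tumours on the deposited scale, as log2(normalized signal + 1), with a point for each tumour and a bar for the mean of a group (triangles, 3 E0771 tumours; circles, 4 MC38 tumours). All E0771 tumours lie right of all MC38 tumours for each gene; on the positive-control scale 0 of the 33 passed and Axl and Tollip turned negative.

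Of 14 measured genes of hypoxia and adenosine, Nt5e was higher and Tfrc lower in E0771 tumours, and 12 did not pass. Over all genes 4.29% were higher and 2.99% lower. Hif1a, the oxygen-regulated subunit of HIF-1, had 1729, 4354 and 4549 in E0771 tumours, against 2065, 1714, 2675 and 1638 in MC38 tumours (0.71 ± 0.45, adjusted p = 0.428). Vegfa, its best known target, had 292, 341 and 390.2 in E0771 tumours, against 448, 159, 458 and 287 in MC38 tumours (0.12 ± 0.44, adjusted p = 0.883), and the lines overlapped for both. Ptgs2, cyclooxygenase-2, spread from 18.2 to 817 among E0771 tumours, against 401 to 1169 among MC38 tumours, with a difference of -2.72 ± 0.86 that did not pass (adjusted p = 0.0665). Ada, which breaks adenosine down, lay lower in every E0771 tumour (155, 91.5 and 133 in E0771 tumours, against 270.5, 326, 305 and 366 in MC38 tumours) without passing (-1.34 ± 0.43, adjusted p = 0.0742).

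In each of the lymphocyte and checkpoint lists 1 or 0 genes passed. Over all genes 7.27% passed (4.29% higher and 2.99% lower), so counts this small do not set these lists apart. Of 14 CD8 and cytotoxic genes 1 passed (Eomes, lower), and of 19 NK cell genes 1 passed (Klra4, lower). Of 19 T cell genes 0 passed, with a median of 0.85 that turned to -0.50 on the positive-control scale, of 16 B cell genes 0 passed (median 0.30, and -0.97 on that scale), and of 12 regulatory T cell genes 0 passed (median 0.76, and -0.58 on that scale). Only 8 T cell, 3 NK cell, 1 B cell and 4 regulatory T cell genes lay above background in all 7 tumours. After background subtraction the medians were 0.46, -0.19, -0.80 and 0.04 in that order, against 0.01 over all genes. Many of these genes were thus under background in some tumour, and 0 passing does not show equal levels. Of 21 checkpoint genes Ido1 alone passed. Pdcd1, which encodes PD-1, had 47.9, 299 and 147 in E0771 tumours, against 67.8, 77.7, 134 and 57.1 in MC38 tumours (0.68 ± 0.70, adjusted p = 0.652). Cd274, its ligand PD-L1, had 468, 880.02 and 1224 in E0771 tumours, against 661, 706, 1244 and 483 in MC38 tumours (0.13 ± 0.58, adjusted p = 0.911). Ctla4 had 50.2, 282 and 107 in E0771 tumours, against 41.7, 46.3, 78.2 and 27.3 in MC38 tumours (1.33 ± 0.72, adjusted p = 0.344), and for all 3 genes the lines overlapped. Tigit, another inhibitory receptor, had non-overlapping groups, 219, 95.04 and 128 in E0771 tumours, against 31.9, 69.4, 63.7 and 42.2 in MC38 tumours, without passing (1.47 ± 0.57, adjusted p = 0.158). Of 25 genes of general interest for checkpoint therapy 21 were positive, and Cxcl10 was the only 1 that passed. Among the others Cd8a differed by 0.77 ± 0.76, Gzmb by -0.68 ± 0.63, Ifng by 1.23 ± 0.67, Foxp3 by 1.28 ± 0.71, Arg1 by 0.58 ± 1.09 and Mrc1 by 0.56 ± 0.85 (adjusted p = 0.355 to 0.789). With a median SE of 0.61 over all genes, differences of this size could not be told from the spread between tumours.

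**Figure D4:**
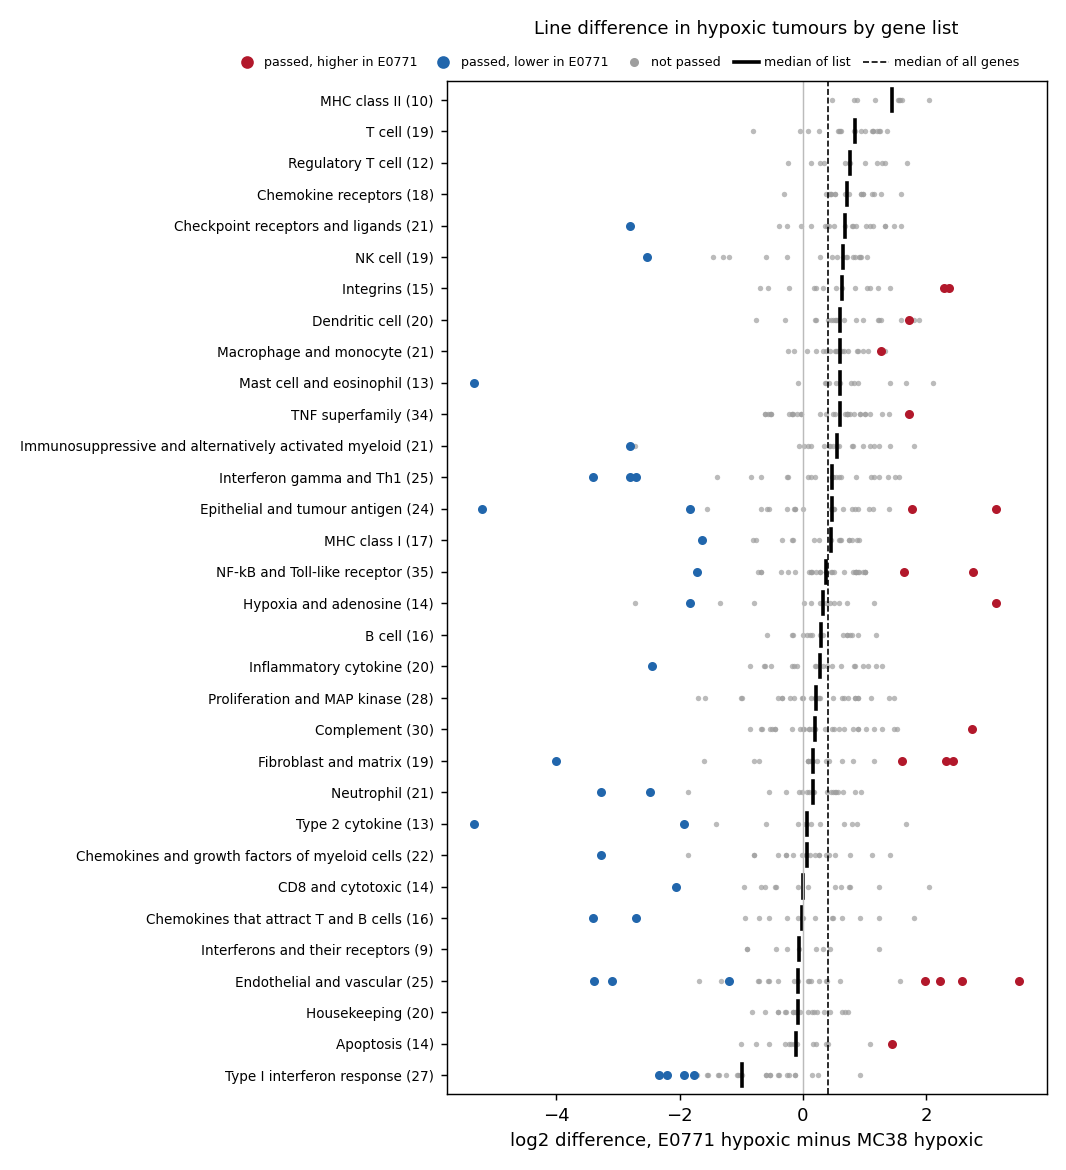
Log2 difference of each measured gene, E0771 hypoxic minus MC38 hypoxic on the deposited scale, in 32 gene lists (number measured in brackets), ordered by median. Black bars are list medians, from 1.44 (MHC class II) to -0.99 (type I interferon response), and the dashed line is the median of all genes, 0.40; on the positive-control scale every list median except that of MHC class II (0.12) was negative.

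The same contrast of lines was also made in normoxic tumours, and its group means share no tumour with the hypoxic contrast. Both contrasts take each gene's spread from the same fit of all 16 tumours, so calls made in both are not independent. Of 770 genes, 11 were higher (1.43%) and 127 lower (16.5%) in E0771 normoxic tumours. The median of all genes was -0.52, against 0.40 in hypoxic tumours, and 24.9% of all genes were positive, against 69.9% in hypoxic tumours. The panel as a whole thus lay lower in the normoxic contrast, which favours falls over rises in the counts that follow. All 23 genes that were lower in E0771 hypoxic tumours were also negative in normoxic tumours, and 17 passed there. Of the 33 higher genes 32 were positive and 9 passed. The 26 genes called in both contrasts were 46.4% of the hypoxic calls and 18.8% of the normoxic calls. The median difference of the 33 higher genes was 1.98 in hypoxic and 0.66 in normoxic tumours, and that of the 23 lower genes was -2.45 and -1.98. These medians come from genes chosen in the hypoxic contrast, so a smaller size in the other contrast carries no test.

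Gene by gene, Il1rl1 (-5.34 in hypoxic and -4.02 in normoxic tumours), Spp1 (-4.01 and -2.91), Ido1 (-2.81 and -2.90) and Itga6 (2.29 and 2.33) passed in both. Hspb2 (3.21 and 0.01), Pdgfrb (2.43 and 0.22), Irak2 (2.76 and 0.41) and St6gal1 (3.02 and 0.44) passed in hypoxic tumours and not in normoxic ones. The difference between the contrasts was itself tested, and 0 of 770 genes passed (0.0%; limma), where the smallest adjusted p was 0.146 and 155 genes had an unadjusted p under 0.05. Genes with an unadjusted p under 0.05 numbered 76 after background subtraction, and 73 of 601 with a filter at a mean of 50. With precision weights 0 genes passed as well (smallest adjusted p 0.294). The median difference of differences over all genes was 0.79, and -0.49 on the positive-control scale. In order of p, the 10 genes of smallest p were Il5, Il9, Cxcr1, Nod2, Irak2, Rag1, Ltk, Card9, Hspb2 and St6gal1. Those of them that had passed in the hypoxic contrast were Irak2 (difference of differences 2.35, adjusted p = 0.146), Hspb2 (3.20, adjusted p = 0.146) and St6gal1 (2.58, adjusted p = 0.146). The count of 0 turned on MC38 normoxic tumour 10: without it 164 of 770 genes passed. For 163 of these, E0771 minus MC38 was more positive in hypoxic than in normoxic tumours. The median difference of differences over all genes was 1.07 in that fit. The 164 genes included 18 of the 33 higher and 1 of the 23 lower genes. In each of the 15 other fits that left out 1 tumour 0 genes passed.

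**Figure D5:**
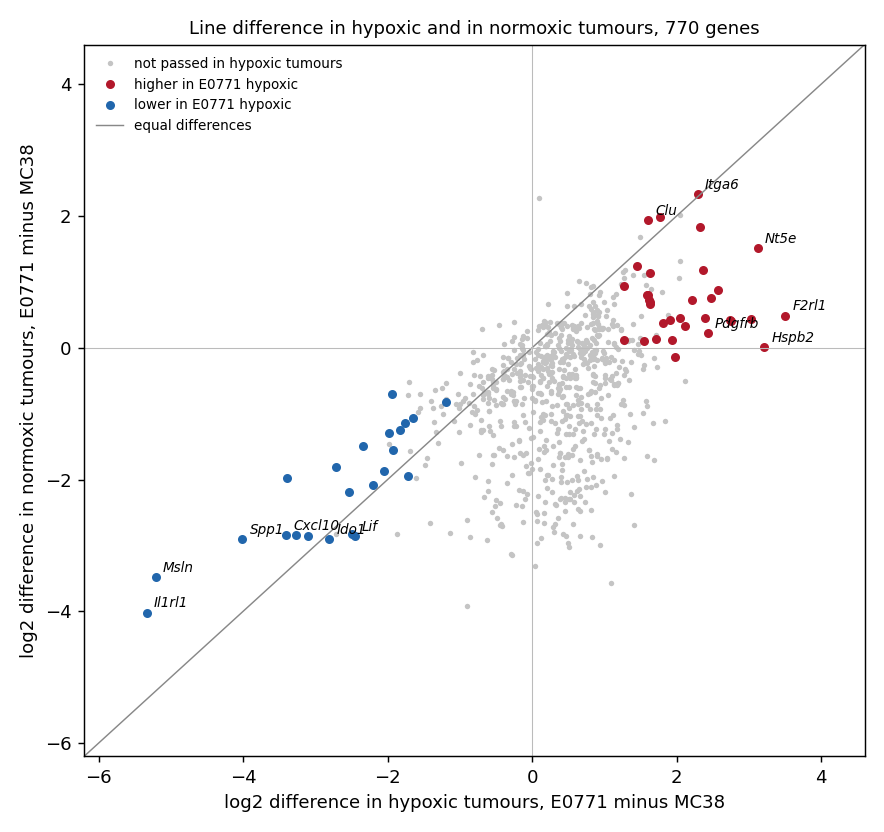
Log2 difference between E0771 and MC38 for 770 genes in hypoxic tumours (horizontal, 3 against 4 tumours) and in normoxic tumours (vertical, 5 against 4 tumours), on the deposited scale. The 23 genes lower in E0771 hypoxic tumours (blue) are negative in both, with medians of -2.45 and -1.98. Of the 33 higher genes (red) 32 are positive in both, and the medians of the 33 are 1.98 and 0.66. The medians of all genes are 0.40 and -0.52.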

How the data were processed

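RNA of 16 mouse tumours had been counted with NanoString probes of a mouse cancer immunology panel. The deposited values are a linear normalized signal; what software the authors used is not given in the sources used here. Per the deposited values, housekeeping genes had been scaled to a common geometric mean, the floor of genes was 1, probes for controls stood unscaled, and no background had been taken off. Within 0.1 step all gene values were whole multiples of a step per tumour, which gave estimated counts (180274 to 890239, median 531770) used for depth and alternatives only. Panel names were matched to RefSeq GRCm38.p6 (756 symbols, 7 synonyms, 7 names kept). A difference is relative to the housekeeping genes, so unequal RNA of those genes would shift every other gene.

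log2(signal + 1) of 770 genes entered limma 3.58.1 (R 4.3.3; lmFit, eBayes with trend) with 4 group means over all 16 tumours (12 residual degrees of freedom, median SE 0.61). Adjusted p-values are Benjamini-Hochberg values with a threshold of 0.05, and folds are on the log2(signal + 1) scale, which understates differences of low genes. The fit was tested on simulated data. Each tumour within a line has its own mouse number, and the labels do not say whether a number found in both lines is the same animal. The p-values weigh a difference against the spread between tumours, pooled over the 4 groups.

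The comparison, the gene lists and the named genes were chosen with earlier results of these data known. The rule named up to 15 largest rises and falls, 25 genes of interest, up to 3 members at each end of each of 32 lists and the 10 genes of smallest p for the difference between contrasts. The remaining calls and marker genes, and Bst2, Cmpk2, Ifit2, Ifnb1, Nfkb1, Psmb8, Psmb9, Rela, Zbp1 and Cd74, were named after their values were seen. Another gene is not reported here and was left out of the 2 interferon response lists, their counts and their medians. Alternatives concerned scaling, background, filters, pseudocount, variance model, precision weights, depth and leaving out tumours. Promoters are RefSeq's.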

Additional observations from a re-analysis of the deposited data

Results flagged for a closer look

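In the 4 MC38 hypoxic tumours, 12 of 226 genes had a tumour far from the other 3 relative to the range of the group; chance alone gives about 1 in 20 groups, and the 3 E0771 tumours were too few to examine. Tumour 17 was high for Bid (324, against 252 to 257 in the others), Ccl24 (28.3, against 9.92 to 11.4), Pdcd1lg2 (62.4, against 13.2 to 14.9) and Ifna2 (23, against 4.90 to 6.21). The same tumour was low for Cd81 (1785, against 2499 to 2616) and for Klra15, which was at the floor of 1 (against 3.27 to 3.73). Tumour 14 was high for Ifitm2 (5965, against 4074 to 4207) and Il27 (8.27, against 1.97 to 2.48), and low for Eomes (66.1, against 99.7 to 107.8). Tumour 12 was low for Smad3 (136.5, against 162 to 165) and high for Tnfrsf12a (1824, against 1508 to 1545). Tumour 25 was low for Muc1 (4.97, against 17.2 to 21.5). Il27 and Klra15 lay under background in all 4 tumours, Muc1 in tumour 25, and Ifna2 in every tumour except 17, so these flags rest on signals near background. Of the 12 flagged genes, Cd81, Eomes and Smad3 were called between the lines, and all E0771 tumours lay outside the MC38 range for each.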

How the results depend on the processing

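The 56 calls (33 higher and 23 lower in E0771) became 58 (22 and 36) when each tumour was centred on its median gene, 46 (0 and 46) on the positive-control scale and 67 (32 and 35) after background subtraction, and the share higher was 58.9%, 37.9%, 0% and 47.8%. The median of all genes was 0.40, 0.08, -0.98 and 0.01 on these scales. On the positive-control scale Axl (-0.17) and Tollip (-0.17) turned negative, and all 23 lower genes still passed on each of these scales. The positive-control scale itself favours falls, since even the housekeeping genes had a median of -1.53 on it. Of the 33 higher genes 19 passed after median centring and 32 after background subtraction. Without the E0771 hypoxic tumours 12 and 22 there were 13 calls (2 higher, 11 lower), and without every tumour under 350000 estimated counts 3 (0 higher, 3 lower). Leaving out 1 hypoxic tumour gave 33 to 53 calls (21 to 30 higher, 12 to 29 lower), fewest without E0771 tumour 12, and a median of all genes of 0.07 to 0.62. In those 7 fits 16 higher and 12 lower genes passed every time. In each setting all 56 genes tested kept their sign, except Axl and Tollip. Filters, a pseudocount of 10, other variance models, precision weights (added after seeing the data), a fit of the 7 hypoxic tumours and an adjusted p under 0.10 gave 51 to 75 calls. The 138 calls in normoxic tumours became 59 with a filter at a mean of 50, 41 without tumours under 350000 counts, and 26 to 240 when 1 normoxic tumour was left out, with 26 without MC38 tumour 7, 41 without 21, 58 without E0771 tumour 17, 69 without 71, 74 without MC38 tumour 4 and 240 without MC38 tumour 10. The difference between the contrasts gave 0 calls in each setting (smallest adjusted p 0.102 to 0.997) except without MC38 normoxic tumour 10 (164), so leaving out 1 tumour gave 0 to 164. Apart from the fits with fewer tumours, the cause was not tested. The planned count model on recovered reads was not run, because control probes and values at the floor of 1 are not whole reads on the deposited scale. No paired analysis was possible because the E0771 and MC38 hypoxic groups share only mouse number 12. The low estimated counts of E0771 tumours 12 and 22 limit what can be read of genes near their background levels of 43.0 and 52.8.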
